A study of Homo sapiens with 6 samples.

Results

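The 10 genes described here encode the abundant folding proteins of the endoplasmic reticulum: HSP90B1, CALR, CANX, HSPA5, HYOU1, DNAJB11, PDIA3, PDIA4, PDIA6 and P4HB. They were chosen by gene name, with no threshold on their values, and all 10 were found among the 58735 genes of the table, where they hold 105 of 206601 annotated transcripts. RNA-seq libraries were made from total RNA of cells labelled CCRF-SB, an established human B lymphoblast-like leukaemia line, grown in RPMI-1640 with fetal bovine serum. In the 3 siANXA1 libraries (genotype label "ANXA1 down-regulated") the cells had received lentivirus carrying an RNA that silences ANXA1, the gene of the calcium-dependent phospholipid-binding protein annexin A1. In the 3 siControl libraries (genotype label WT) they had received an empty vector, and the labels mention no non-targeting RNA. All 6 libraries carry a day 5 label, and the labels describe puromycin selection of stable cells. Proliferation and drug resistance are the processes for which the title of the series says the gene was studied.

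ANXA1 stood at 1604, 1721 and 1710 CPM in siANXA1 replicates 1 to 3, against 3691, 3692 and 3751 CPM in siControl replicates 1 to 3, where CPM is the usual library-size unit for counts, here scaled between libraries by TMM. The groups did not overlap, and the log2 fold change was -1.15 ± 0.093 (SE), just outside the threshold of 0.05 in edgeR's quasi-likelihood test (adjusted p = 0.0571) and past it in DESeq2 (adjusted p = 3.21e-07). Total counts were 53661293, 25657804 and 45039967 in siANXA1 and 49778490, 48174350 and 41913392 in siControl, so siANXA1 replicate 2 was the shallowest. On principal component 1 of all genes, with 39.9% of the variance, siANXA1 replicate 2 lay with siControl replicates 1 and 2, and siANXA1 replicates 1 and 3 lay with siControl replicate 3. The libraries therefore stand apart in a way that crosses the groups, and the main results below are also given within these 2 sides. The labelled B cell identity was not borne out by its markers, given as CPM without TMM: of 12 B cell genes, 8 were under 1 CPM, VPREB1 and IGLL1 were at 0 in every library, and the summed level of 42.3 to 110 CPM in siANXA1 and 44.4 to 88.4 CPM in siControl was mostly CD24. Of 8 plasma cell genes, whose cell type is rich in these chaperones, IGHM and IGKC were at 0 in every library, and the sum was 6.14 to 8.79 CPM in siANXA1 and 6.25 to 12.3 CPM in siControl. T cell genes summed to 15.0 to 24.0 CPM in siANXA1 and 10.9 to 38.9 CPM in siControl, and myeloid genes to 42.6 to 46.5 CPM in siANXA1 and 38.2 to 58.6 CPM in siControl. The 12 erythroid genes, none at 0 in all libraries, summed to 5940 to 7000 CPM in siANXA1 and 2080 to 3530 CPM in siControl, without overlap. HBE1 made up most of that gap, at 3240, 2200 and 2940 CPM in siANXA1 and 4.83, 646 and 9.44 CPM in siControl, and the other 11 genes summed to 3760, 3740 and 3220 CPM in siANXA1 and 2070, 2890 and 3070 CPM in siControl. TFRC stood at 1130, 1860 and 1060 CPM in siANXA1 and at 1320, 2150 and 1320 CPM in siControl. In bulk RNA, fewer cells of a type and less RNA per cell cannot be told apart.

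Proteins bound for the secretory pathway enter the endoplasmic reticulum unfolded and meet several chaperone systems there. HSPA5 (BiP), an Hsp70, binds exposed hydrophobic stretches with the help of J-domain partners such as DNAJB11 and of the nucleotide exchange factor HYOU1. HSP90B1 (GRP94) is the Hsp90 of this compartment. CALR and CANX are lectins that hold glycoproteins through their sugar chains, and the protein disulfide isomerases PDIA3, PDIA4, PDIA6 and P4HB make and rearrange disulfide bonds. HSPA5 also keeps the stress sensors of the unfolded protein response quiet, and when unfolded clients accumulate, the transcription factors ATF6 and XBP1 induce chaperone genes through the endoplasmic reticulum stress response element, an NF-Y box spaced from a CCACG site.

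The promoters were read because these genes are the textbook targets of that element. RefSeq windows on GRCh38.p14, from 250 bases before to 50 bases after an annotated gene start, were found for 9 of the 10 genes, in 14 windows, and PDIA3 had no entry in the table used. The first 250 bases of 4 windows are printed because they hold the matches of the 2 genes with the largest log2 fold changes, HSP90B1 and CALR, and of HSPA5 and HYOU1, whose fold changes were smaller. All are written 5′ to 3′ on the gene's strand, with the letters of a match on either strand in capitals.
HSP90B1, chr12:103930160-103930409, plus strand: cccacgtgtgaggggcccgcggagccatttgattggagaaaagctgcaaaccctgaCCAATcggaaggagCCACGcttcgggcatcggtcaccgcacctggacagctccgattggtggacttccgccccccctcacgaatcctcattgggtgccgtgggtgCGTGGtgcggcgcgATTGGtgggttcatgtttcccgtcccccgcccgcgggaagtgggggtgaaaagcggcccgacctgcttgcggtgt
CALR, chr19:12938359-12938608, plus strand: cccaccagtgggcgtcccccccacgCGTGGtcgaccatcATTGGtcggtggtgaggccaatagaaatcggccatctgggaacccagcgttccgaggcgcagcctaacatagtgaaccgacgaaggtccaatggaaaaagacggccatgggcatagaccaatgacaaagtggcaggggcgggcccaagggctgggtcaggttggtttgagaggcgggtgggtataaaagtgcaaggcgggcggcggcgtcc
HSPA5, chr9:125241344-125241593, minus strand: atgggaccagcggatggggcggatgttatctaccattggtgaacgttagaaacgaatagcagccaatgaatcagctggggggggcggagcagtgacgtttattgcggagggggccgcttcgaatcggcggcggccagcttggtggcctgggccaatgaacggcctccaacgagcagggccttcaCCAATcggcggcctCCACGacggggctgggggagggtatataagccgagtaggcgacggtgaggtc
HYOU1, chr11:119057206-119057455, minus strand: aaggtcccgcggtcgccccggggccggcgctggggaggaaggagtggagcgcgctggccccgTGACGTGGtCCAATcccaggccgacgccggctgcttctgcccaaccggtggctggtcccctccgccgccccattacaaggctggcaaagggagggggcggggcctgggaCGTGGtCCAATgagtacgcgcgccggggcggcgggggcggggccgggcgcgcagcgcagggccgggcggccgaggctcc
The matches of CANX, at chr5:179698778-179698796 on the plus strand, and of PDIA6, at chr2:10812853-10812871 on the minus strand, were as follows.
CANX: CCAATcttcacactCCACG
PDIA6: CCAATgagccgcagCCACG
The endoplasmic reticulum stress response element was searched on both strands as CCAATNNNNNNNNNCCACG. It was present in HSP90B1, which holds 1 match on each strand, and in CALR, HSPA5, CANX and PDIA6, that is in 5 of the 9 genes, against 0.0769% of 35116 windows and 0.0916% of 27305 genes in the table. HYOU1 held none but carried the second form of the element, ATTGGNCCACG, at 2 places, against 0.0541% of windows, and the unfolded protein response element TGACGTGG at 1 place that overlaps one of them, against 0.729% of windows. The amino acid response element TGATGNAAT, the kind of site that ATF4 binds with CEBP partners, was found in 0 of the 9 genes, against 0.991% of windows. The windows of DNAJB11, PDIA4 and P4HB held none of these 4 strings. HSP90B1 and CALR thus share the exact element with HSPA5, CANX and PDIA6, whose log2 fold changes were smaller. Since these genes are textbook targets of the element, its presence in them was foreseen and is no independent result. A match is a string in a window, not a measured binding site.

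Most chaperone genes were somewhat higher in siANXA1 than in siControl, but none passed the test. edgeR called 0 of the 10 at an adjusted p under 0.05, where 0.0111% of 17947 genes were called, and DESeq2, which called 0.834% of 19180 genes, and limma-voom also called 0 of the 10. At an unadjusted p under 0.05, edgeR put 2 of the 10, HSP90B1 and CALR, on the higher side, where 3.40% of all genes were. All 10 passed the filter on low counts. The log2 fold change was positive in 9 of 10, against 50.5% of all genes tested and 56.1% of the 947 genes with a mean CPM at least that of DNAJB11, the lowest of the 10. The median log2 fold change of the 10 was 0.27, against 0.01 over all genes tested and 0.04 over those 947 genes. Without siControl replicate 3 that median was 0.48. The libraries of the groups did not overlap, with siANXA1 higher, in HSP90B1 and CALR, 2 of 10, against 7.41% of all genes tested and 7.07% of the 947. The reverse, siANXA1 lower without overlap, was seen in 0 of 10 and in 7.24% of all genes. Counting only the most abundant transcript of each gene left 1 of 10, where 6.73% of all genes did not overlap in that direction. Leaving out siControl replicate 3 gave 7 of 10, against 20% of all genes, and leaving out siANXA1 replicate 2 gave 5 of 10, against 17.2%. Together the 10 genes held 1.4%, 1.42% and 1.42% of the annotated counts in siANXA1 replicates 1 to 3, against 1%, 1.01% and 1.24% in siControl. The summed erythroid level given above also separated the groups, and its part in these values was not tested.

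**Figure D1:**
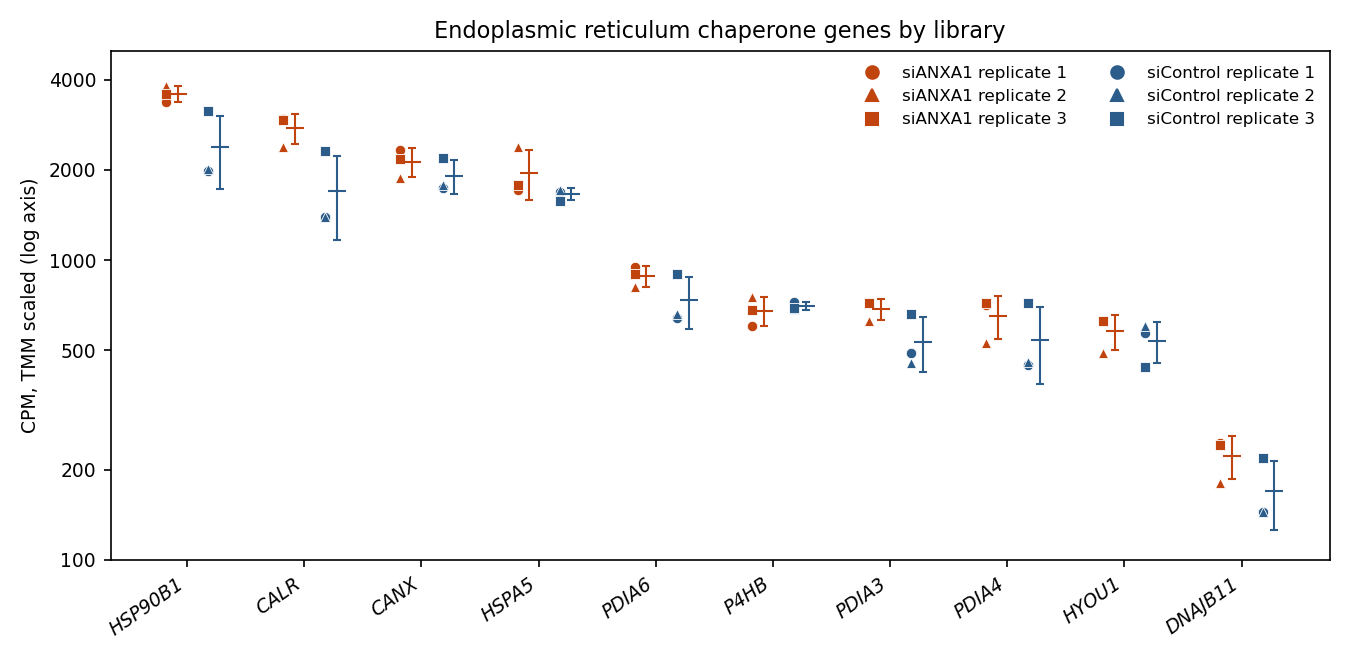
Level of each of the 10 genes by library, in TMM-scaled CPM on a log axis; points are single libraries, and the bars beside them give the mean and SD of 3 libraries. Only for HSP90B1 and CALR do all siANXA1 points lie above all siControl points, and siControl replicate 3 is the highest siControl point in 7 of the 10 genes.

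HSP90B1, on chr12:103930107-103953645 (plus strand, on GRCh38 like all gene positions here), stood at 3371, 3808 and 3588 CPM in siANXA1, against 1977, 2023 and 3135 CPM in siControl. The first pair of siControl libraries was far below the rest, while siControl replicate 3 came near the lowest siANXA1 library. Its protein folds a restricted set of clients, among them integrins and Toll-like receptors. The means were 3589 ± 219 CPM in siANXA1 and 2378 ± 655 CPM in siControl (SD, n = 3 each), a log2 fold change of 0.59 ± 0.199 (SE) with a 95% interval of 0.11 to 1.07, and edgeR gave an adjusted p of 0.61. Part of this difference lay outside the coding transcripts: summed over coding transcripts alone, the level was 3084, 2231 and 3415 CPM in siANXA1 and 1717, 1843 and 2951 CPM in siControl, and the groups then overlapped. Within the sides of component 1 the log2 difference was 0.93 for siANXA1 replicate 2 against siControl replicates 1 and 2, and 0.15 for siANXA1 replicates 1 and 3 against siControl replicate 3.

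CALR, on chr19:12938578-12944489 (plus strand), stood at 2953, 2388 and 2929 CPM in siANXA1, against 1398, 1390 and 2306 CPM in siControl. The groups were separated only by the narrow gap between siANXA1 replicate 2 and siControl replicate 3. Calreticulin is the soluble lectin chaperone and also binds calcium in the lumen. The means were 2757 ± 320 CPM in siANXA1 and 1698 ± 527 CPM in siControl (SD, n = 3 each), with a log2 fold change of 0.70 ± 0.23 (SE), a 95% interval of 0.15 to 1.25 and an edgeR adjusted p of 0.607. In coding transcripts alone it stood at 2913, 2333 and 2893 CPM in siANXA1 and at 1376, 1367 and 2276 CPM in siControl, so that its groups stayed apart. The log2 difference was 0.78 on the side of siANXA1 replicate 2 and 0.35 on the other, the only one of the 10 genes with a difference over 0.3 and of the same sign on both.

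CANX, the membrane-bound lectin that works beside calreticulin, lies on chr5:179678628-179730925 (plus strand). Its level was 2330, 1877 and 2184 CPM in siANXA1 and 1744, 1786 and 2200 CPM in siControl. siControl replicate 3 lay inside the siANXA1 range, and the log2 fold change was 0.16 ± 0.143 (SE), with a 95% interval of -0.19 to 0.50 (edgeR adjusted p = 0.778). It was 0.09 to 0.10 without siControl replicate 1 or 2 or siANXA1 replicate 1, 0.27 without siControl replicate 3 and 0.24 without siANXA1 replicate 2. The lectin pair was then set side by side, a comparison chosen after its values were seen: the ratio of CALR to CANX counts was 1.27, 1.27 and 1.34 in siANXA1 and 0.802, 0.778 and 1.05 in siControl. The ratios of the groups did not overlap, with siANXA1 higher. These counts are not corrected for length, and per length, in the TPM given below, CALR was above CANX in all 6 libraries.

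HSPA5, the Hsp70 of the compartment and the usual readout of its stress response, lies on chr9:125234853-125241330 (minus strand) and has 1 annotated transcript. It stood at 1711, 2381 and 1786 CPM in siANXA1, against 1686, 1718 and 1574 CPM in siControl. siANXA1 replicate 2 was high and the other 5 libraries lay close together, whereas in CALR siANXA1 replicate 2 was the lowest of its group. The log2 fold change was 0.24 ± 0.153 (SE), with a 95% interval of -0.13 to 0.61 (edgeR adjusted p = 0.696), and 0.08 without siANXA1 replicate 2. The ratio of HSP90B1 to HSPA5 counts, also chosen after its values were seen, was 1.97, 1.60 and 2.01 in siANXA1 and 1.17, 1.18 and 1.99 in siControl, so that siControl replicate 3 matched siANXA1 replicates 1 and 3.

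HYOU1, a large Hsp70 relative that makes HSPA5 release its nucleotide, lies on chr11:119044189-119057202 (minus strand). Its level was 625.5, 490.3 and 625.9 CPM in siANXA1 and 570.2, 601.8 and 441.2 CPM in siControl. The lowest library of each group was the one that lay on the other group's side of component 1, and the groups overlapped. The log2 fold change was 0.11 ± 0.173 (SE), with a 95% interval of -0.31 to 0.53 (edgeR adjusted p = 0.854). Its direction turned to -0.02 without siControl replicate 3, it was 0.06 without siANXA1 replicate 1 or 3, 0.19 without siControl replicate 2 and 0.22 without siANXA1 replicate 2, and the difference was -0.26 on the side of siANXA1 replicate 2 and 0.50 on the other. DNAJB11 (ERdj3), the J-domain partner that hands clients to HSPA5, lies on chr3:186567403-186585800 (plus strand). It stood at 244.6, 179.9 and 242.5 CPM in siANXA1 and at 144.5, 144.3 and 219.5 CPM in siControl. siControl replicate 3 exceeded siANXA1 replicate 2, and the log2 fold change was 0.39 ± 0.227 (SE), with a 95% interval of -0.16 to 0.94 (edgeR adjusted p = 0.671), and 0.62 without siControl replicate 3. TBCCD1 overlaps it on the opposite strand and held 8.44% as many counts. Without a stated strand setting, it is not known whether reads from the shared stretch were told apart. The 3 genes of the Hsp70 cycle thus gave 3 different orders of libraries.

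PDIA3 (ERp57), the isomerase that calreticulin and calnexin recruit to glycoproteins, lies on chr15:43746392-43773279 (plus strand). It stood at 718.5, 624.5 and 719.9 CPM in siANXA1, against 488.6, 452.7 and 662.2 CPM in siControl. Only siControl replicate 3 and siANXA1 replicate 2 kept the groups from separating, and the log2 fold change was 0.36 ± 0.175 (SE), with a 95% interval of -0.06 to 0.79 (edgeR adjusted p = 0.644). Its processed pseudogene PDIA3P1 was given 1550, 63 and 1128 counts in siANXA1 and 968, 896 and 1053 in siControl, 4.28% as many as PDIA3 in all, so reads may be divided arbitrarily between the copies. PDIA6, which acts on disulfides of HSPA5 clients, lies on chr2:10783391-10837977 (minus strand). It stood at 950.0, 811.6 and 896.2 CPM in siANXA1 and at 642.3, 661.5 and 901.5 CPM in siControl, a log2 fold change of 0.27 ± 0.167 (SE) with a 95% interval of -0.13 to 0.67 (edgeR adjusted p = 0.686). In both genes siControl replicates 1 and 2 were the lowest libraries and siControl replicate 3 lay among those of siANXA1. The log2 fold change of PDIA6 was 0.18 without siControl replicate 1 and 0.44 without siControl replicate 3.

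PDIA4 (ERp72), an isomerase with more thioredoxin-like domains than PDIA3, lies on chr7:149003062-149028641 (minus strand). It stood at 707.7, 527.2 and 720.9 CPM in siANXA1 and at 447.3, 457.4 and 721.6 CPM in siControl. Its highest library was siControl replicate 3, level with siANXA1 replicates 1 and 3, and the log2 fold change was 0.27 ± 0.236 (SE), with a 95% interval of -0.30 to 0.83 (edgeR adjusted p = 0.773). It was 0.14 and 0.15 without siControl replicates 1 and 2, 0.52 without siControl replicate 3 and 0.40 without siANXA1 replicate 2. P4HB, the founding protein disulfide isomerase and the beta subunit of prolyl 4-hydroxylase, lies on chr17:81843159-81860694 (minus strand). It stood at 601.7, 751.5 and 679.5 CPM in siANXA1 and at 727.6, 688.6 and 692.6 CPM in siControl. It was the only one of the 10 with a negative log2 fold change, -0.05 ± 0.124 (SE) with a 95% interval of -0.35 to 0.25 (edgeR adjusted p = 0.905), and the sign turned to 0.03 without siANXA1 replicate 1, beside -0.13 without siANXA1 replicate 2 and -0.03 without siControl replicate 1. Its siControl libraries spanned the narrowest range of its group's values relative to the mean, 702.9 ± 21.5 CPM (SD, n = 3), among the 10 genes.

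**Figure D2:**
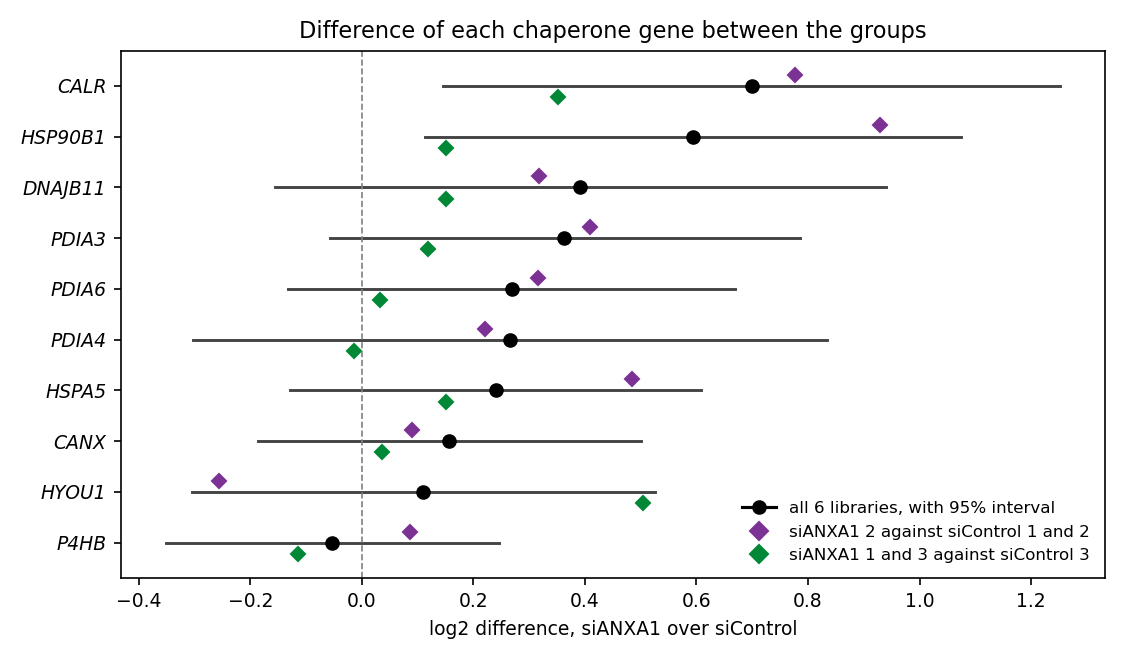
Log2 difference of siANXA1 over siControl for each gene: black points are the edgeR estimates from 6 libraries with their 95% intervals, and diamonds are the differences within each side of principal component 1. The intervals of CALR and HSP90B1 lie above 0 before adjustment, and the diamonds of HYOU1 lie on opposite sides of 0, at -0.26 and 0.50. Those of P4HB, at 0.086 and -0.115, and of PDIA4, at 0.221 and -0.015, also lie on opposite sides of 0. The side of siANXA1 replicate 2 is given first.

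Set against each gene's mean over the 6 libraries, the median deviation of the 10 genes on the log2 scale was 0.23, 0.04 and 0.22 in siANXA1 replicates 1 to 3 and -0.31, -0.31 and 0.13 in siControl replicates 1 to 3. siControl replicate 3 thus lay above siANXA1 replicate 2, and on the side of siANXA1 replicates 1 and 3. Between siANXA1 replicate 2 and siControl replicates 1 and 2, 9 of 10 differences were positive with a median of 0.32, where 50.2% of all genes were positive with a median of 0.00. Between siANXA1 replicates 1 and 3 and siControl replicate 3, 8 of 10 were positive with a median of 0.13, where 49.9% of all genes were positive. These within-side values rest on 1 library in one group each, and have no test. DDIT4, the stress-induced inhibitor of mTORC1 and the ATF4 target listed with the highest CPM, varied along the same division: it stood at 109.6, 1434 and 108.4 CPM in siANXA1 and at 2279, 2169 and 189.0 CPM in siControl. The glycolytic gene GAPDH, for scale, averaged 4320 ± 25.4 CPM in siANXA1 and 4226 ± 123 CPM in siControl (SD, n = 3 each).

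**Figure D3:**
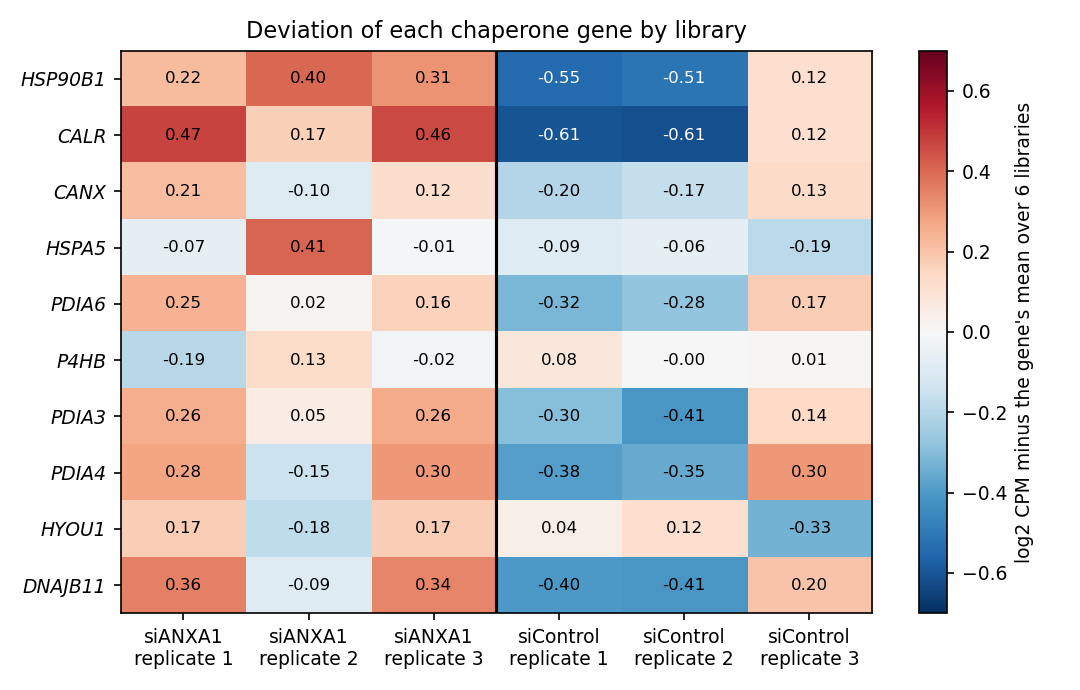
Deviation of each gene's log2 CPM from its own mean over the 6 libraries, by library, with red above and blue below that mean. siControl replicates 1 and 2 are blue in 8 of the 10 genes, HSPA5 is highest in siANXA1 replicate 2, and HYOU1 is lowest in siControl replicate 3.

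The 10 genes did not all vary alike. As root mean square distance of centred log2 CPM over the 6 libraries, the closest pairs were PDIA4 with DNAJB11 at 0.0654, PDIA3 with PDIA6 at 0.0708 and CANX with PDIA6 at 0.0842. The farthest were CALR with P4HB at 0.506 and CALR with HYOU1 at 0.490. HSPA5 was closest to P4HB, at 0.167, and lay 0.454 from CALR. Distances to the mean profile of the 10 went from 0.0578 for PDIA6 to 0.279 for HYOU1. The genes outside the 10 that lay closest to that mean profile, among 10666 genes with a mean of 5 CPM or more, were RCN2 at 0.0219, SLC2A8 at 0.0298, PTPN11 at 0.0304, GNPDA2 at 0.0356 and TOP1 at 0.0366, followed by PDCD2L, SAR1B, RBM12B, MYCBP and ADO at up to 0.0437. RCN2, which encodes a calcium-binding protein of the endoplasmic reticulum, stood at 87.36, 76.86 and 86.19 CPM in siANXA1 and at 62.20, 63.79 and 78.34 CPM in siControl (edgeR adjusted p = 0.661). 38 other genes lay closer to the mean profile than PDIA6, the nearest of the 10, and 3943 lay closer than HYOU1. The distance is not scaled for the size of the variation, so genes that hardly vary can also lie closer than HYOU1. The count for HYOU1 therefore does not show a shared profile. The nearest genes named above include genes of other kinds, and the points of the profile share the depth and the sides of 6 libraries.

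Levels were compared between genes as TPM, which corrects for transcript length and library size, computed here from the deposited lengths over annotated transcripts. CALR and HSP90B1 were the most abundant, at 3283 ± 329 and 2568 ± 372 TPM in siANXA1, against 1915 ± 641 and 1759 ± 362 TPM in siControl (SD, n = 3 each). Their ranges overlapped each other in both groups. CANX averaged 914.1 ± 70.8 TPM in siANXA1 and 811.3 ± 104 TPM in siControl, HSPA5 897.6 ± 190 TPM in siANXA1 and 753.2 ± 32.7 TPM in siControl, and P4HB 796.6 ± 64.9 TPM in siANXA1 and 804.5 ± 22.0 TPM in siControl. The order of these 3 could not be told from the libraries, since neighbours overlapped in both groups. PDIA6 came next and below all of them, at 674.0 ± 35.5 TPM in siANXA1 and 557.9 ± 111 TPM in siControl. PDIA4 at 407.9 ± 61.6 TPM in siANXA1 and 337.7 ± 95.5 TPM in siControl overlapped HYOU1, at 397.3 ± 54.1 TPM in siANXA1 and 357.8 ± 26.2 TPM in siControl. PDIA3 followed at 331.6 ± 20.9 TPM in siANXA1 and 257.0 ± 54.7 TPM in siControl. DNAJB11 was the lowest in both groups, at 176.6 ± 8.60 TPM in siANXA1 and 146.3 ± 52.7 TPM in siControl. TPM depends on how counts were divided among transcripts of different length, which varied as described next.

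The deposited estimates divide each gene's counts among its transcripts. Of the 105 transcripts, 61 passed the filter on low counts and 0 were called by edgeR, where 1 of 58702 transcripts, 0.0017%, was called and 2756 had an unadjusted p under 0.05. HSPA5, PDIA3, PDIA4 and PDIA6 held at least 98.2% of their counts, on average, in 1 transcript. CANX did not: its transcript ENST00000247461 held 97.2%, 7.85% and 96.8% of the counts in siANXA1 and 6.59%, 6.86% and 97.3% in siControl, and ENST00000452673 held nearly all the rest. That switch followed the sides of component 1 and not the groups. Both transcripts have 15 exons and the same coding sequence of 1776 bases, and they differ by 53 bases out of 4260, so the encoded protein is the same. DNAJB11 also varied between 2 coding transcripts of the same coding sequence, with ENST00000265028 at 9.79%, 59.1% and 5.10% in siANXA1 and 61.0%, 10.3% and 73.9% in siControl. Here the division between coding transcripts followed neither the groups nor the sides. A retained-intron transcript of DNAJB11, ENST00000495390, held 21.6%, 36.5% and 25.3% of its counts in siANXA1 and 35.5%, 34% and 23.7% in siControl, along the sides.

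In HSP90B1 the coding transcript ENST00000299767 held 91.4%, 58.6% and 95.2% of the counts in siANXA1 and 86.8%, 91.0% and 94.1% in siControl. siANXA1 replicate 2 stood apart, with 33.5% of its counts given to the retained-intron transcript ENST00000548462, against 1.56% to 5.44% in the other 5 libraries. The coding transcript and that one share 2754 of the coding transcript's 2858 bases. CALR was steadier: its full-length transcript ENST00000316448 held 82.5%, 81.6% and 80.5% in siANXA1 and 89.7%, 84.3% and 84.4% in siControl. A short coding transcript, ENST00000588454, took 16.2%, 16.2% and 18.3% of CALR counts in siANXA1, against 8.71%, 14.0% and 14.4% in siControl, so that its share was above that of every siControl library. Its log2 fold change was 1.04 and did not pass the test (edgeR adjusted p = 0.998), and all of its 776 bases lie in the long transcript. In P4HB the coding transcript ENST00000331483 held 8.39%, 63.1% and 17.7% in siANXA1 and 14.7%, 12.2% and 46.3% in siControl. A nonsense-mediated decay transcript, ENST00000575069, held 31.9%, 0% and 36.0% in siANXA1 and 39.7%, 40.7% and 0% in siControl, and its 2453 bases all lie in the coding one. HYOU1 was divided mainly between ENST00000617285, with a mean share of 46.0%, and the shorter ENST00000530473, with 50.7%. Sums per gene do not depend on how counts were divided within the gene.

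**Figure D4:**
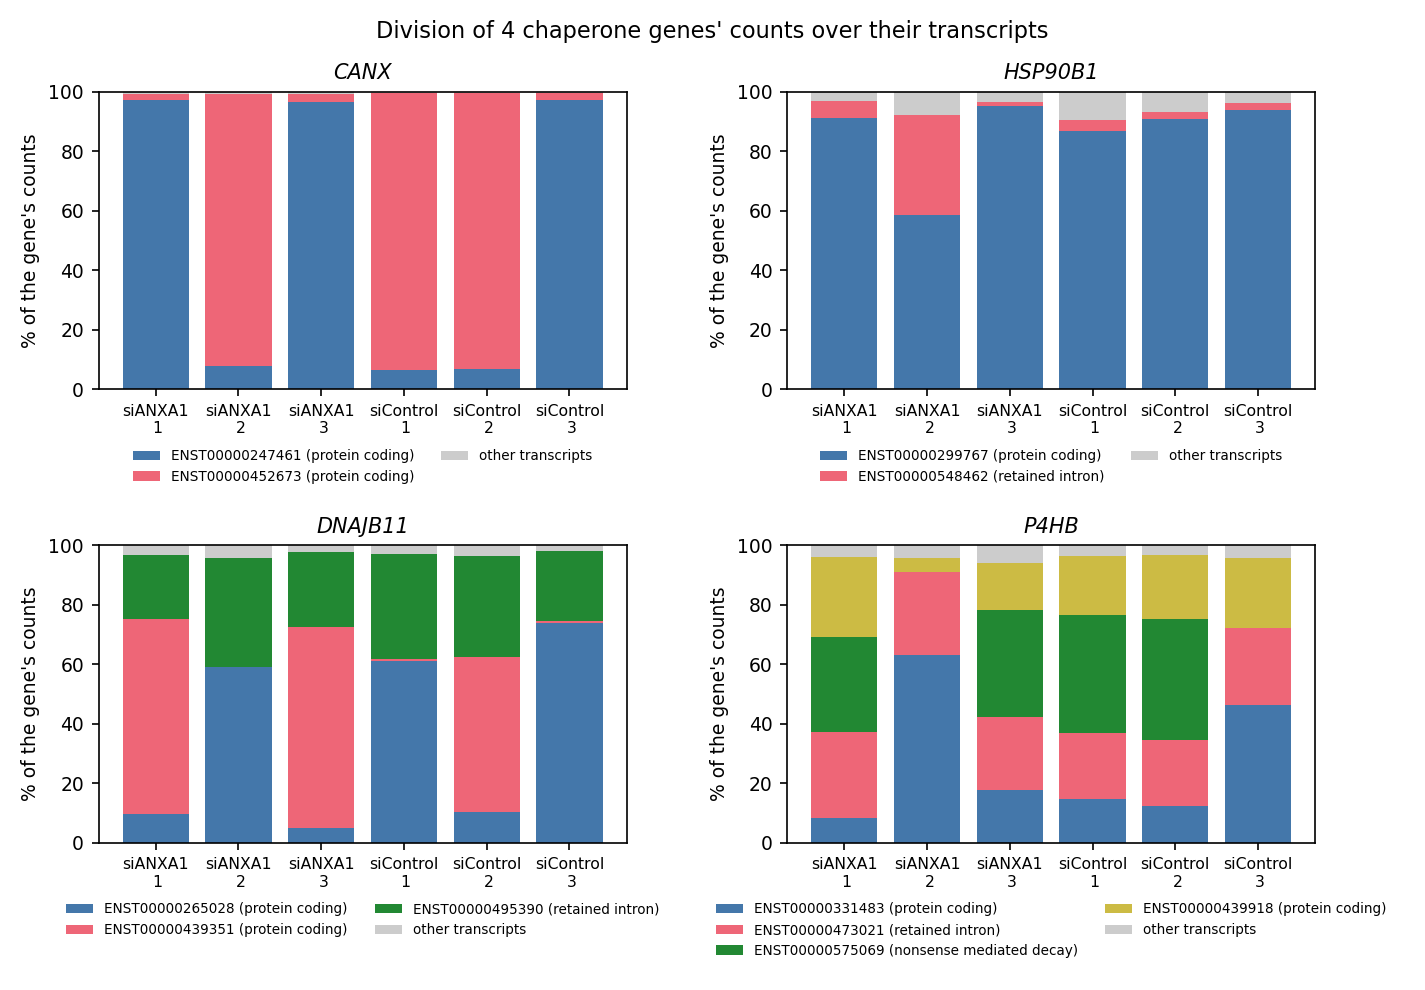
Share of each gene's estimated counts held by its main transcripts in each library, for CANX, HSP90B1, DNAJB11 and P4HB. The CANX bars switch between 2 transcripts with siANXA1 replicates 1 and 3 and siControl replicate 3 on one side, and the HSP90B1 retained-intron share reaches 33.5% only in siANXA1 replicate 2.

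The other genes of the pathway were followed in 10 lists. Of 180 listed genes 176 were tested, and edgeR called 0 of them, with 5 higher and 15 lower at an unadjusted p under 0.05 (3.40% and 4.52% of all genes) and a smallest adjusted p of 0.499. limma-voom also called 0, and DESeq2 called 2, TMX1 and the ATF4 target ATF5, both lower in siANXA1. Over all 19180 genes DESeq2 called 0.834%. In all, 81 had a positive log2 fold change and the median was -0.03, against 0.27 for the 10 chaperones. The groups did not overlap in 13 of the 176 with siANXA1 higher and in 16 with siANXA1 lower, where 7.41% and 7.24% of all genes tested did not.

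Among 14 sensors and transcription factors of the unfolded protein response, 5 had a positive log2 fold change and the median was -0.18. ATF4, the translationally controlled factor of the PERK branch, averaged 398.6 ± 110 CPM in siANXA1 and 551.9 ± 163 CPM in siControl. It varied along the sides of component 1, at 343.7, 525.2 and 326.8 CPM in siANXA1 and 681.9, 604.2 and 369.7 CPM in siControl. PPP1R15B, a subunit of the phosphatase that reverses eIF2alpha phosphorylation, averaged 185.5 ± 23.8 CPM in siANXA1 and 160.8 ± 13.2 CPM in siControl (SD, n = 3 each). The factors that act on the element printed above were looked at after their values were seen. XBP1 stood at 120.7, 153.7 and 166.1 CPM in siANXA1 and at 125.3, 163.0 and 134.1 CPM in siControl, with full overlap. ATF6 stood at 120.4, 134.1 and 119.2 CPM in siANXA1 and at 13.19, 6.74 and 128.7 CPM in siControl, and the log2 fold change of 1.33 had an SE of 1.034 (edgeR adjusted p = 0.746). The low pair of siControl libraries was the same as for HSP90B1 and CALR, whereas siANXA1 replicate 2, on their side of component 1, was not low. Of the NF-Y genes, NFYC stood at 42.07, 31.7 and 41.25 CPM in siANXA1 and at 63.63, 62.13 and 60.54 CPM in siControl. Its log2 fold change was -0.695 ± 0.173 SE (edgeR adjusted p = 0.605). It was the 1 gene of the 14 without overlap, where 7.24% of all genes were lower without overlap. NFYB and NFYA overlapped, with log2 fold changes of -0.401 and 0.036. DDIT3 (CHOP), the death-associated factor of the same response, stood at 23.16, 77.41 and 26.31 CPM in siANXA1 and at 100.7, 95.32 and 19.92 CPM in siControl, along the sides of component 1.

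Of 22 co-chaperones and folding helpers, 11 had a positive log2 fold change and the median was -0.05. PPIB, the cyclophilin of the endoplasmic reticulum, averaged 423.8 ± 45.2 CPM in siANXA1 and 376.8 ± 43.1 CPM in siControl, and SDF2L1, a partner of DNAJB11, 334.7 ± 9.54 CPM in siANXA1 and 261.2 ± 129 CPM in siControl (SD, n = 3 each). Of 19 other isomerases and oxidases 5 were positive, with a median of -0.24. TXNDC5 averaged 378.4 ± 48.7 CPM in siANXA1 and 293.2 ± 85.9 CPM in siControl, ERP29 172.1 ± 10.7 CPM in siANXA1 and 228.7 ± 39.7 CPM in siControl, and neither passed the test. TMX1, a membrane-bound member of the family chosen here after its values were seen, had the smallest adjusted p of all the lists. It stood at 48.60, 75.22 and 44.01 CPM in siANXA1, against 123.4, 153.0 and 155.0 CPM in siControl (log2 fold change -1.36 ± 0.246 SE, edgeR adjusted p = 0.499), without overlap, and passed in DESeq2 (adjusted p = 0.00342).

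The machinery that brings proteins in and sugars onto them lay mostly on the same side as the chaperones. Of 29 genes of the translocon, signal peptidase and oligosaccharyltransferase 25 had a positive log2 fold change, with a median of 0.21, and 5 did not overlap with siANXA1 higher, against 1 with siANXA1 lower. Over all genes tested 50.5% were positive, and 7.41% and 7.24% did not overlap with siANXA1 higher and lower. Its most abundant genes in CPM overlapped between the groups: SSR3 averaged 482.3 ± 193 CPM in siANXA1 and 394.1 ± 139 CPM in siControl, and RPN2 411.7 ± 24.0 CPM in siANXA1 and 397.0 ± 25.3 CPM in siControl (SD, n = 3 each). DDOST, a subunit of the oligosaccharyltransferase, was one of the 5 and was picked after its values were seen. It stood at 414.8, 455.5 and 424.7 CPM in siANXA1 and at 373.7, 356.0 and 373.5 CPM in siControl (edgeR adjusted p = 0.644). Of 14 cytosolic and mitochondrial relatives of the chaperones 11 were positive, with a median of 0.26. The cytosolic Hsp90 genes led by level, HSP90AB1 at 6659 ± 653 CPM in siANXA1 and 5534 ± 1030 CPM in siControl and HSP90AA1 at 2874 ± 200 CPM in siANXA1 and 2100 ± 1060 CPM in siControl. Their median was close to that of the 10 chaperones, so positive values were not restricted to the endoplasmic reticulum.

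The remaining lists lay near or below 0. Of 18 genes of endoplasmic reticulum-associated degradation 10 were positive, with a median of 0.03. VCP, the ATPase that pulls substrates out of the membrane, averaged 586.6 ± 58.2 CPM in siANXA1 and 511.0 ± 112 CPM in siControl, and UBXN4, which recruits it, 196.3 ± 4.47 CPM in siANXA1 and 217.8 ± 12.0 CPM in siControl (SD, n = 3 each). Of 18 genes of retrieval and export 7 were positive, with a median of -0.02. In 4 of the 18 the groups did not overlap with siANXA1 lower, and in 1 with siANXA1 higher. Over all genes tested these shares were 7.24% and 7.41%. LMAN1, a cargo receptor for glycoproteins, averaged 332.5 ± 63.8 CPM in siANXA1 and 450.7 ± 32.7 CPM in siControl, without overlap, and its partner MCFD2 341.3 ± 13.6 CPM in siANXA1 and 374.4 ± 49.9 CPM in siControl. Of 13 genes of calcium handling 4 were positive, with a median of -0.09. The calcium pump gene ATP2A2 averaged 405.0 ± 157 CPM in siANXA1 and 277.3 ± 28.1 CPM in siControl, and CALU, a luminal calcium-binding protein, 384.5 ± 55.0 CPM in siANXA1 and 385.7 ± 24.4 CPM in siControl.

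MHC class I molecules fold with the help of CALR, CANX and PDIA3. Of 9 genes of that list tested, 1 was positive, and the median was -0.42. B2M, the light chain of these molecules, stood at 322.5, 382.7 and 323.6 CPM in siANXA1 and at 436.7, 460.2 and 377.3 CPM in siControl. Its groups overlapped between siANXA1 replicate 2 and siControl replicate 3 alone. HLA-E averaged 86.48 ± 30.9 CPM in siANXA1 and 116.0 ± 45.5 CPM in siControl (SD, n = 3 each). It varied along the sides of component 1, at 67.3, 122.2 and 69.99 CPM in siANXA1 and 148.3, 135.8 and 63.92 CPM in siControl. Of 20 ATF4 targets 2 were positive, with a median of -0.99. In 1 of the 20 the groups did not overlap, with siANXA1 lower, as in 7.24% of all genes tested. These values are from all 6 libraries and were not split by the sides of component 1. With the side as covariate 4 were positive. DDIT4, given above, varied along the sides. SLC7A5, an amino acid transporter, averaged 447.6 ± 131 CPM in siANXA1 and 540.6 ± 129 CPM in siControl. It also varied along the sides, at 372.7, 599.4 and 370.8 CPM in siANXA1 and 633, 595.7 and 393.1 CPM in siControl. None of these genes passed edgeR. ATF5 alone among them passed DESeq2 (adjusted p = 0.00483), at 10.02, 29.74 and 10.88 CPM in siANXA1 and 205.9, 276.8 and 23.78 CPM in siControl, with overlap between siANXA1 replicate 2 and siControl replicate 3.

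**Figure D5:**
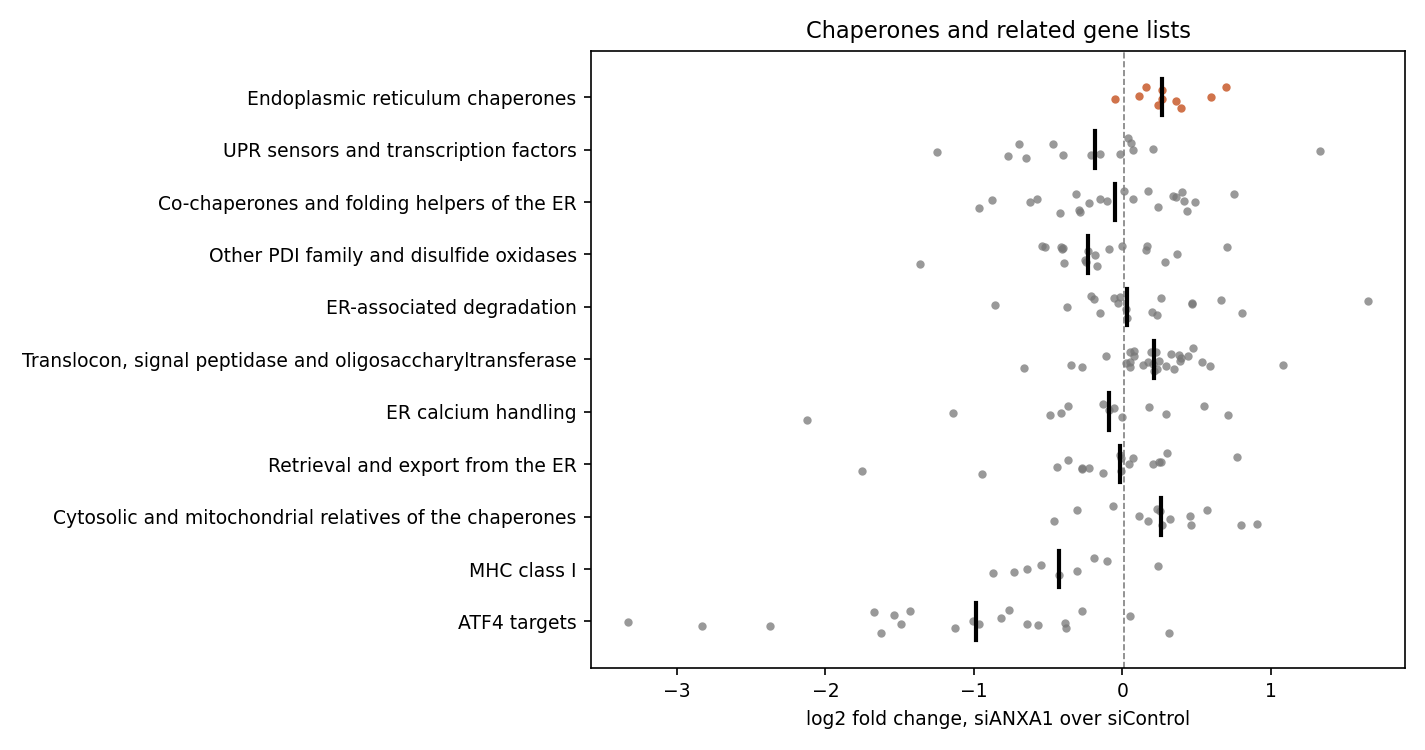
Log2 fold change of siANXA1 over siControl for each gene tested in the 10 chaperones, in orange, and in each of the other lists, in grey; vertical bars are medians and the dashed line marks the median of all genes tested. The chaperones have a median of 0.27, the translocon list 0.21 and the cytosolic relatives 0.26, while the ATF4 targets have -0.99. Values are from all 6 libraries and are not split by the sides of principal component 1.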

How the data were processed

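For each transcript the authors deposited an estimated count, whole and not normalized, beside gene names, positions and lengths. The unit was read from the values. Neither aligner nor counter nor strand setting is given in the sources used here. For the build, the submitters' processing notes name the mouse build mm10 alone, while all 105 transcripts of the 10 genes have the position, strand and gene of GENCODE release 29 on human GRCh38. The 16014 rows without a gene, 16.9% to 17.7% of the counts, were left out of library sizes and tests, which kept 21333951 to 44148505 counts per library. Depth sets the counting precision, and error of the estimation itself is not covered by the intervals.

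Counts were summed per gene over 206601 transcripts and tested in R 4.3.3 by edgeR 4.0.16 with TMM scaling, filterByExpr and robust quasi-likelihood fits (glmQLFit, glmQLFTest), with group alone in the model, two-sided, and p adjusted by Benjamini-Hochberg over all genes tested. Alternatives used DESeq2 1.42.0, limma 3.58.1 (voom), other scalings and filters, and each library left out. Deviations and distances used log2 CPM with a prior count of 2. Figures were drawn with matplotlib 3.10.9. On simulated counts for siANXA1 against siControl over 17947 genes, 0 of 50 genes were found at a true change of 1.5-fold, 4 of 50 at 2-fold, 41 of 50 at 4-fold and 46 of 50 at 8-fold, beside 5 false calls.

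Groups and replicate numbers came from the sample titles. Whether replicates were separate cultures is not stated, so the p-values reflect only the spread between these libraries, which may be technical. Chi-square per degree of freedom between libraries of a group was 77.1 to 211, so none was merely the same library counted again. That value cannot tell separate cultures from separate preparations of the same culture. Genes named were ANXA1, the 10 chaperones, the 2 genes with the highest CPM of each list, any gene past the threshold, the 10 closest by distance and the 2 most abundant markers, with exceptions stated where they appear. The chaperones, the lists and this rule were chosen with earlier results of these data known. Protein sequences were not used here.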

Additional observations from a re-analysis of the deposited data

How the results depend on the processing

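0 of the 10 chaperone genes were called under any of the 18 alternatives run, with a smallest adjusted p of 0.088, for HSP90B1 without siControl replicate 3. The number with a positive log2 fold change was 8 to 10 and the median 0.21 to 0.48 with single libraries left out. Without siControl replicate 3 they were 8 and 0.48. The sign turned for HYOU1 without siControl replicate 3 (-0.019) and for P4HB without siANXA1 replicate 1 (0.028, against a lowest value of -0.13 without siANXA1 replicate 2), and for no other gene of the 10. The count of all genes called, 2, was 160 with DESeq2 (69 higher, 91 lower), 5 with the unannotated rows tested too, 5 with the side of component 1 as covariate, 1 with protein coding genes alone, 1 with the most abundant transcript per gene, and 0 to 7 with single libraries left out. With the replicate number as a block (replicate block) it was 0, and the smallest adjusted p of the 10 was 0.589. The numbers are not shown to pair libraries, since same-numbered libraries correlated in their deviations at -0.11, 0.26 and 0.26. Upper quartile scaling moved the median of all genes to -0.05 and that of the 10 to 0.22. ANXA1 passed the threshold in 6 alternatives, with adjusted p from 3.21e-07 (DESeq2) to 0.0487 (without siControl replicate 3), and its log2 fold change kept its direction. Counts of positive values in the lists went from 3 to 7 for the sensors and factors, 5 to 9 for the other isomerases, 4 to 7 for calcium handling, 1 to 3 for MHC class I and 0 to 4 for the ATF4 targets. The count was 19 to 25 for the translocon list, lowest with the most abundant transcript per gene. For the cytosolic and mitochondrial relatives it was 8 to 12, lowest with the side of component 1 as covariate. It was 8 to 11 for the co-chaperones, 7 to 11 for degradation and 6 to 9 for retrieval and export. The cause of these shifts was not tested. The common biological coefficient of variation was 0.423, and the simulation found 0 of 50 genes changed 1.5-fold and 4 of 50 changed 2-fold. These rates are for genes from among all 17947 tested. The SE of the log2 fold change in the chaperones was 0.124 (P4HB) to 0.236 (PDIA4). The rates therefore do not tell how readily the largest chaperone differences, 1.51-fold and 1.62-fold, would have been found.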
